A study of Mus musculus with 18 samples.

Results

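The 36 genes described here build, transfer and trim the N-linked glycan, the sugar tree that most proteins of the secretory pathway receive in the endoplasmic reticulum (ER). They were taken by gene symbol from a table of 51499 assembled loci, and each of the 36 was found at 1 locus. The tree is assembled sugar by sugar on the lipid dolichol, first on the cytosolic face of the ER membrane and then, after a flip, on the luminal face. The oligosaccharyltransferase (OST) moves the finished tree onto asparagines of the growing protein. Glucosidases and mannosidases then trim it, and the trimmed forms tell the folding machinery whether a glycoprotein is folded. Fibroblasts carry a heavy load of such work because they secrete collagens, fibronectin and other glycoproteins of the matrix.

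The study sequenced total RNA from mouse embryonic fibroblast (MEF) lines labelled Ago2+/+ or Ago2-/-, the latter meant to lack AGO2, an Argonaute protein that cleaves mRNAs in RNA interference. The cells received the solvent DMSO, tunicamycin, or 500 nM thapsigargin, and every one of the 6 groups has 3 libraries. Tunicamycin blocks the enzyme encoded by Dpagt1, one of the 36 genes, and thapsigargin blocks the pump that fills the ER with calcium. The sources used here do not say whether a line is a single clone.

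The labels need care. Library titles use the name DCR1 for the groups called Ago2+/+ here. In 4 of the 18 libraries the genotype labels contradict each other, namely the 3 libraries of replicate 2 titled DCR1 and the Ago2-/- DMSO library of replicate 3. Titles decided their group. Under the label Ago2+/+, the mRNA of Ago2 itself measured 22.1 (DMSO), 5.75 (tunicamycin) and 17.0 FPKM (thapsigargin), and under Ago2-/- it measured 5.61, 15.5 and 20.7 FPKM. FPKM is the number of fragments per kilobase of transcript and per 1000000 mapped fragments. Ago2 was thus lowest in 1 group of each label, and every direction given below rests on labels that this level goes against. Groups also lay close together across the labels. The group labelled Ago2-/- DMSO lay close to that labelled Ago2+/+ tunicamycin, Ago2-/- tunicamycin close to Ago2+/+ thapsigargin, and Ago2-/- thapsigargin close to Ago2+/+ DMSO.

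Each group has 1 pooled FPKM per gene, so no value carries an SD and no test between groups could be made. Among the lowest values of 9872 loci with a single transcript, the 3 densest windows of 2% were taken in each group as levels. They held 98.8% to 99.6% of these values, of which there were 498 to 555 per group under a cut near the lowest values. The cut removes higher values by design, so it sets part of this share. The number 3 was set in advance, so the search does not test whether the levels are single fragments of 3 libraries. If they are, and with an assumed fragment length of 200 bases, each library held the equivalent of 27.9 to 46.6 times 1000000 fragments. The lowest value among the 36 genes, 6.76 FPKM for Alg11, then stands for about 825 fragments per kilobase over the 3 libraries, with a counting error of 3.48%. On that reading counting error is small for all of these genes, while the spread between libraries is unknown. Differences are given as log2 ratios of FPKM + 0.1, and a gene is counted as past the fold at 1.5-fold or more. As a measure of what is usual, the same count was made over the 11929 loci whose 6 groups averaged 1 FPKM or more, and all 36 genes are among them.

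The genes of this pathway were mostly at their highest in 2 groups that carry different labels. The groups labelled Ago2+/+ thapsigargin and Ago2-/- tunicamycin held the 2 highest values for 22 of the 36 genes (61.1%), where 26% of all loci did the same. This summary was chosen after the values were seen. The 22 include Dpagt1, Dhdds, Alg2, Alg9, Stt3a, Rpn1, Ddost, Dad1, Ostc, Mogs and Ganab. The same groups held the 2 lowest values for 5 genes, Alg8, Alg11, Dpm1, Dpm3 and Uggt1 (23.8% of all loci). The groups labelled Ago2+/+ DMSO and Ago2-/- thapsigargin held the 2 lowest values for 12 genes (19.6% of all loci) and the 2 highest for Alg1 and Alg13 (17.7% of all loci). Ago2+/+ tunicamycin and Ago2-/- DMSO held the 2 highest for Alg8, Dpm1 and Man1b1 (26.6% of all loci) and the 2 lowest for Alg1, Alg3, Nus1 and Mpdu1 (26.4% of all loci). From the lowest to the highest group the 36 genes spanned a median of 0.61 on the log2 scale, against 0.80 for all loci. At least a 2-fold span, with 0.1 added to each FPKM, was seen in 9 of the 36, against 38% of all loci. Alg9 is not among the 9, at 1.999-fold with 0.1 added and 2.01-fold in FPKM.

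**Figure D1:**
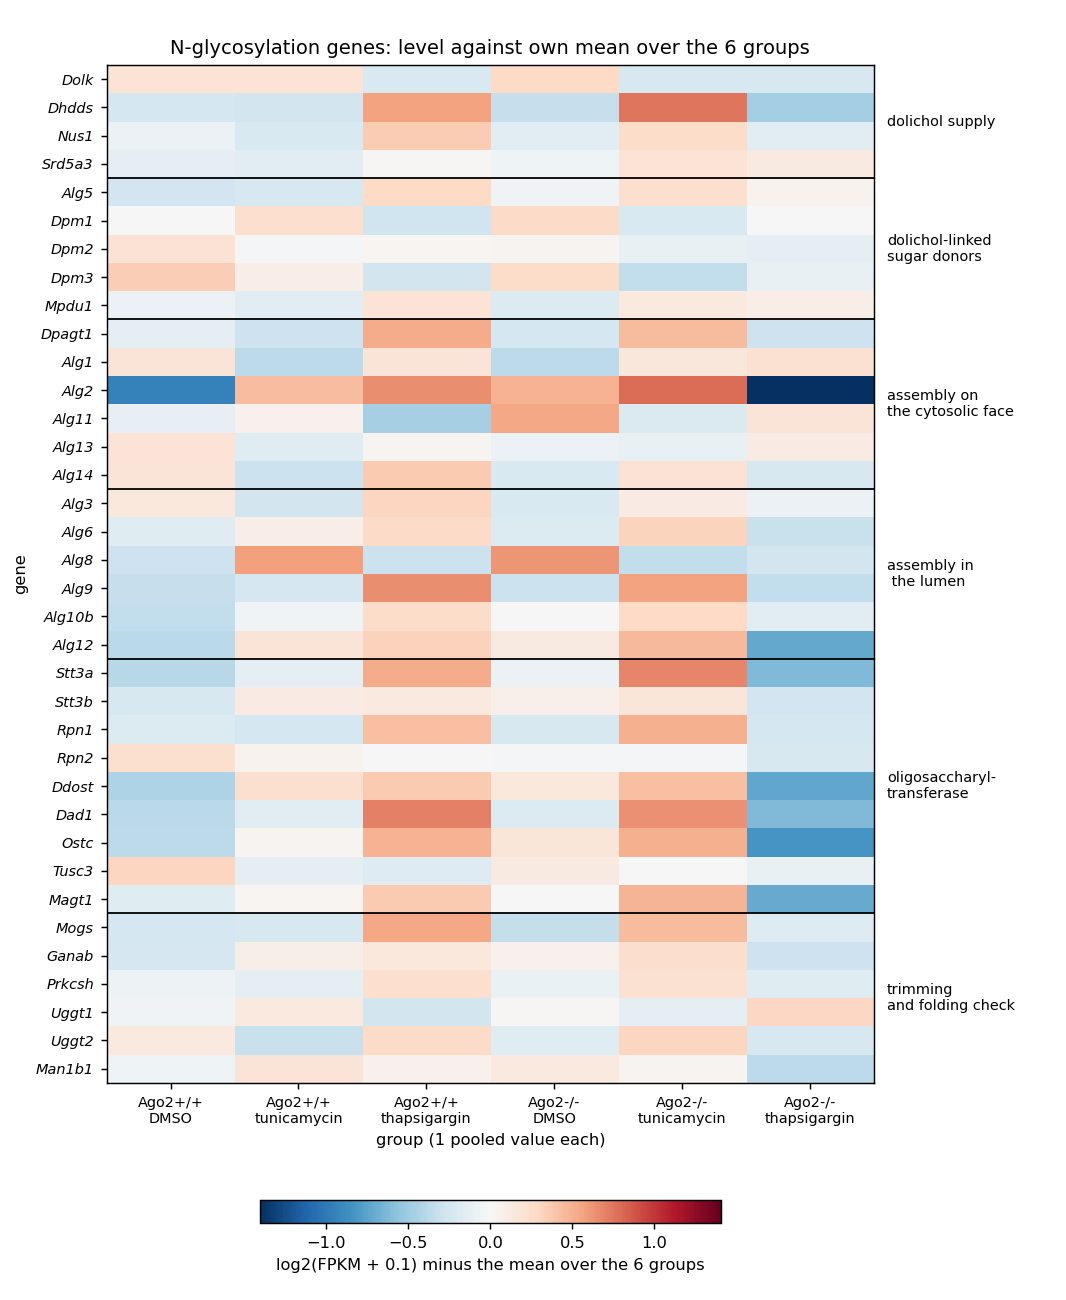
Level of each of the 36 genes in the 6 groups, as log2(FPKM + 0.1) minus the gene's own mean over the groups, with genes in rows by role and 1 pooled value per cell. The columns Ago2+/+ thapsigargin and Ago2-/- tunicamycin are red for most rows, and they hold the 2 highest values for 22 of the 36 genes.

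In what follows, levels are FPKM in the order DMSO, tunicamycin and thapsigargin, first for the groups labelled Ago2+/+ and then for those labelled Ago2-/-.

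Dolichol is made by a cis-prenyltransferase of 2 subunits, DHDDS and NUS1, and is finished by the reductase SRD5A3 and the kinase DOLK. Dhdds stood at 16.7, 16.6 and 29.4 FPKM under Ago2+/+ and at 15.8, 33.5 and 14.2 FPKM under Ago2-/-. The groups Ago2+/+ thapsigargin and Ago2-/- tunicamycin were thus high, and the other 4 lay between 14.2 and 16.7 FPKM. The catalytic subunit and its partner differed in size of span, since Nus1 stood at 33.2, 30.2 and 45.0 FPKM and at 31.4, 41.9 and 31.6 FPKM. Srd5a3 kept between 11.8 and 15.0 FPKM in all 6 groups. Dolk, which adds the phosphate, was lower in 3 groups than in the others, at 12.7, 12.6 and 9.55 FPKM and at 13.5, 9.48 and 9.47 FPKM, but its locus holds exons of 7 other annotated genes.

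Dolichol phosphate carries mannose and glucose into the lumen. The mannose donor is made by the DPM complex, of which Dpm1 encodes the enzyme, Dpm2 a regulatory subunit and Dpm3 the membrane anchor. The glucose donor is made by ALG5, and MPDU1 is needed for the use of both. Dpm3 stood at 73.6, 61.7 and 48.5 FPKM under Ago2+/+ and at 69.3, 45.4 and 54.0 FPKM under Ago2-/-. It was lowest where Dhdds was highest. Dpm2 spanned 38.3 to 48.5 FPKM, and Dpm1 spanned 43.0 to 63.0 FPKM at a locus whose row also names Adnp and Gm20716. Alg5 went from 28.7 to 42.0 FPKM and Mpdu1 from 21.7 to 28.4 FPKM, both highest in the group labelled Ago2+/+ thapsigargin. The genes of this role did not share 1 direction.

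The cytosolic part of the tree starts with DPAGT1, which puts the first sugar phosphate on dolichol and is the enzyme that tunicamycin blocks. Dpagt1 (ENSMUSG00000032123, chr9:44326019-44334386, GRCm38, + strand) stood at 19.6, 17.6 and 30.9 FPKM under Ago2+/+ and at 18.1, 29.2 and 17.5 FPKM under Ago2-/-. Between the second and the third highest group lay a 1.49-fold gap, and the 4 lower groups lay within 17.5 and 19.6 FPKM. The locus also holds exons of Gm48853. Against its DMSO group, Dpagt1 was -0.16 on the log2 scale in the group labelled Ago2+/+ tunicamycin and 0.69 in that labelled Ago2-/- tunicamycin.

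ALG13 and ALG14 together add the second sugar. Alg13 kept between 16.6 and 21.4 FPKM, and Alg14 stood at 20.1, 14.3 and 22.8 FPKM and at 15.2, 20.3 and 15.1 FPKM. Alg1, the first mannosyltransferase, was at 17.0, 11.6 and 17.0 FPKM and at 11.6, 16.7 and 17.3 FPKM, so that it was low in the pair of groups labelled Ago2+/+ tunicamycin and Ago2-/- DMSO and alike in the other 4. ALG2 adds the next mannoses. Alg2 (ENSMUSG00000039740, chr4:47465067-47474333, - strand) had the widest span of the 36 genes at 4.60-fold, with 9.84, 25.8 and 30.2 FPKM under Ago2+/+ and 26.9, 33.0 and 7.16 FPKM under Ago2-/-. Its levels fell into a low pair, Ago2+/+ DMSO and Ago2-/- thapsigargin, and 4 groups from 25.8 FPKM upwards. ALG11 adds the last mannoses before the flip. Alg11 stood at 8.64, 9.82 and 6.76 FPKM and at 13.7, 8.13 and 10.7 FPKM, with its highest value in the group labelled Ago2-/- DMSO.

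In the lumen, the mannosyltransferases ALG3, ALG9 and ALG12 extend the branches. Alg9 stood at 8.90, 9.43 and 17.6 FPKM under Ago2+/+ and at 9.01, 16.6 and 8.74 FPKM under Ago2-/-, a 2.01-fold span with 2 groups high and 4 low. Its locus also holds exons of 1110032A03Rik and Fdxacb1. Alg3 kept between 13.5 and 19.9 FPKM. Alg12 (ENSMUSG00000035845, chr15:88805244-88819318, - strand) stood at 10.9, 16.0 and 17.7 FPKM and at 15.3, 19.4 and 8.52 FPKM. Like Alg2 it was lowest in the groups labelled Ago2+/+ DMSO and Ago2-/- thapsigargin.

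The glucosyltransferases ALG6, ALG8 and ALG10 then cap the tree. Alg8 (ENSMUSG00000035704, chr7:97371606-97392185, + strand) was high in another pair of groups, with 17.6, 32.0 and 17.4 FPKM under Ago2+/+ and 32.9, 16.9 and 17.9 FPKM under Ago2-/-. The groups labelled Ago2+/+ tunicamycin and Ago2-/- DMSO were 1.79-fold or more above the other 4, which lay within 16.9 and 17.9 FPKM. Alg6, which acts just before ALG8, stood at 11.2, 13.5 and 15.2 FPKM and at 11.04, 15.6 and 10.1 FPKM. Alg10b, the last enzyme of assembly, stood at 34.3, 41.9 and 51.9 FPKM and at 43.7, 52.7 and 39.1 FPKM. Alg6 and Alg10b shared their 2 highest groups, Ago2-/- tunicamycin and Ago2+/+ thapsigargin, and Alg8 was low in both.

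Alg12 was also the only one of the genes matched to a promoter table that carries the ER stress response element, the motif through which ATF6 and related factors switch on ER chaperone genes. The element was searched on both strands as CCAAT, 9 bases of any kind and CCACG in 300 bases of each RefSeq promoter (250 before and 50 after the start, GRCm38.p6). It was found in 39 of 32851 promoters (0.119%). RefSeq promoters were matched for 31 of the 36 genes. Those of Dpagt1, Alg2, Alg11, Ostc and Tusc3 were not used here. The 59 bases around the element of Alg12 (chr15:88819500-88819558, - strand, the element starting 220 bases before the start site) are shown beside those of Hspa5, which encodes the chaperone BiP (chr2:34772005-34772063, + strand, 65 bases before), and of the glycan lectin gene Canx (chr11:50325780-50325838, - strand, 145 bases before). Capitals mark the outer parts of the element.
Alg12: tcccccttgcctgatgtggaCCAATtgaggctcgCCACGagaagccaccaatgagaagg
Hspa5: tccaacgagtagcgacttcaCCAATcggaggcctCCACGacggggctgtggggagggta
Canx: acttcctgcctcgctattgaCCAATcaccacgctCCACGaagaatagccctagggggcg

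The bases between CCAAT and CCACG differed among the 3 genes. Calr and Hsp90b1 carried the element too. The second form of the element (ATTGG, 1 base of any kind, CCACG) lay in 12 promoters (0.0365%), Herpud1 among them, and the core of the unfolded protein response element (TGACG followed directly by TGG) lay in 222 (0.676%). Neither was found in a promoter of the 31 matched genes. The 3 motifs were matched as letters only, and a match is no measure of binding. The levels of the 3 genes shown were unlike, since Hspa5 stood at 4808, 6746 and 5367 FPKM and at 7682, 5155 and 3677 FPKM, and Canx kept between 322.8 and 390.9 FPKM. The 32 promoters of the matched genes had a median GC content of 61.3% and a median of 24 CpG, against 52.7% and 7 over all promoters. All promoters were taken without a filter on expression, which the matched genes all passed. Whether other expressed genes share this composition was not tested.

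The OST was the most abundant role, with 9 genes summing to between 860 and 1555 FPKM per group. STT3A and STT3B are alternative catalytic subunits, the first working alongside translation and the second largely after it. Stt3a (ENSMUSG00000032116, chr9:36729344-36767679, - strand) stood at 145, 173 and 272 FPKM under Ago2+/+ and at 179, 306 and 124 FPKM under Ago2-/-, a 2.47-fold span. Stt3b kept within 59.4 and 80.9 FPKM, a 1.36-fold span. The ratio of Stt3a to Stt3b therefore went with Stt3a, at 2.35, 2.23 and 3.46 and at 2.37, 3.78 and 2.08.

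The shared subunits of the OST were not alike either. Dad1 (ENSMUSG00000022174, chr14:54235479-54254104, - strand), a small membrane subunit first known as a defender against cell death, stood at 43.8, 51.2 and 93.6 FPKM and at 49.9, 89.2 and 37.2 FPKM. Rpn1, encoding ribophorin I, stood at 202, 194 and 309 FPKM and at 197, 328 and 194 FPKM. Rpn2, encoding ribophorin II of the same complex, was at 269.5, 238 and 231 FPKM and at 226, 226 and 197 FPKM. It was highest in the group labelled Ago2+/+ DMSO, at a locus that also holds exons of Mroh8. The ratio of Rpn1 to Rpn2 was 0.750, 0.816 and 1.34 in the groups labelled Ago2+/+ and 0.872, 1.45 and 0.987 in those labelled Ago2-/-.

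Ddost (ENSMUSG00000028757, chr4:138304730-138312628, + strand), which encodes a non-catalytic core subunit, stood at 115, 182 and 201 FPKM and at 173, 209 and 94.0 FPKM. Ostc, a subunit of the STT3A form, stood at 113, 149 and 203 FPKM and at 162, 204 and 81.5 FPKM. Both were low in the pair Ago2+/+ DMSO and Ago2-/- thapsigargin, as Alg2 and Alg12 were. Tusc3 and Magt1 encode alternative oxidoreductase subunits of the STT3B form. Magt1 stood at 40.5, 46.6 and 58.9 FPKM and at 46.0, 63.5 and 28.0 FPKM, whereas Tusc3 kept within 42.7 and 59.5 FPKM and was highest in the group labelled Ago2+/+ DMSO. Their ratio, Magt1 over Tusc3, was 0.680, 1.06 and 1.38 and 0.871, 1.32 and 0.625, so that the more abundant of the 2 changed between groups.

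**Figure D2:**
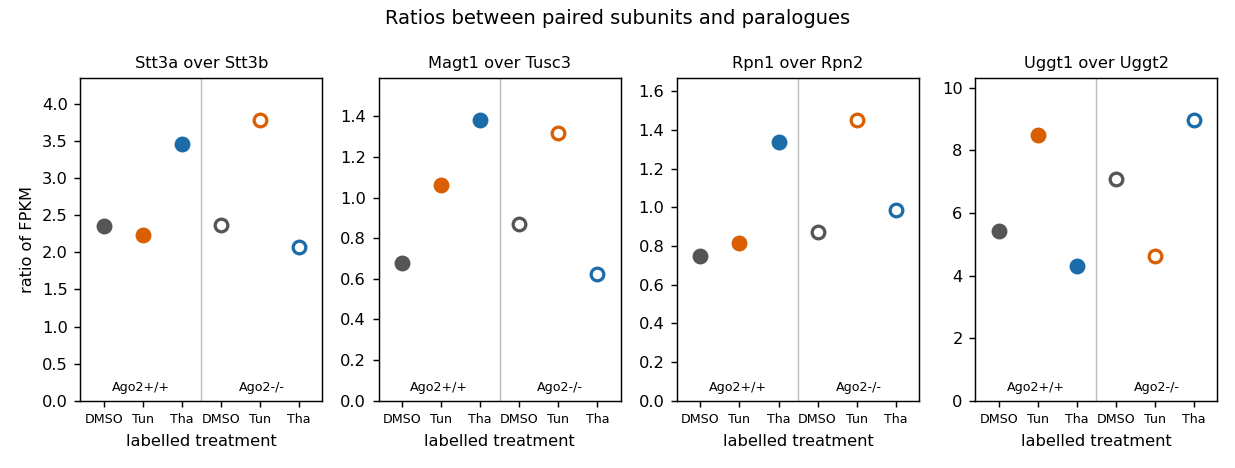
Ratio of FPKM (y axis, from 0) between paired genes in each group, filled for groups labelled Ago2+/+ and open for Ago2-/-, coloured by labelled treatment (DMSO, Tun for tunicamycin, Tha for thapsigargin). The ratio of Stt3a to Stt3b was 3.46 and 3.78 in the 2 highest groups and between 2.08 and 2.37 in the other 4, and the ratio of Uggt1 to Uggt2 ran the other way.

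After transfer, MOGS removes the outer glucose, and glucosidase II, made of the catalytic subunit GANAB and the subunit PRKCSH, removes the rest. Mogs (ENSMUSG00000030036, chr6:83115496-83118898, + strand) stood at 36.6, 37.1 and 63.0 FPKM under Ago2+/+ and at 34.4, 59.0 and 38.2 FPKM under Ago2-/-. It had the shape of Dpagt1 and Alg9, 2 groups high and 4 alike. Ganab spanned 89.1 to 129 FPKM and Prkcsh 88.0 to 116 FPKM, and their ratio stayed between 0.980 and 1.28. UGGT1 puts a glucose back on misfolded glycoproteins and UGGT2 is its paralogue. Uggt1 stood at 59.5, 67.9 and 51.6 FPKM and at 62.5, 56.5 and 75.7 FPKM, and Uggt2 at 10.9, 7.99 and 11.96 FPKM and at 8.82, 12.2 and 8.45 FPKM. The ratio of Uggt1 to Uggt2 was 5.44, 8.50 and 4.31 and 7.08, 4.63 and 8.96. MAN1B1, the ER mannosidase that marks glycoproteins for disposal, had an mRNA between 30.5 and 44.6 FPKM.

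**Figure D3:**
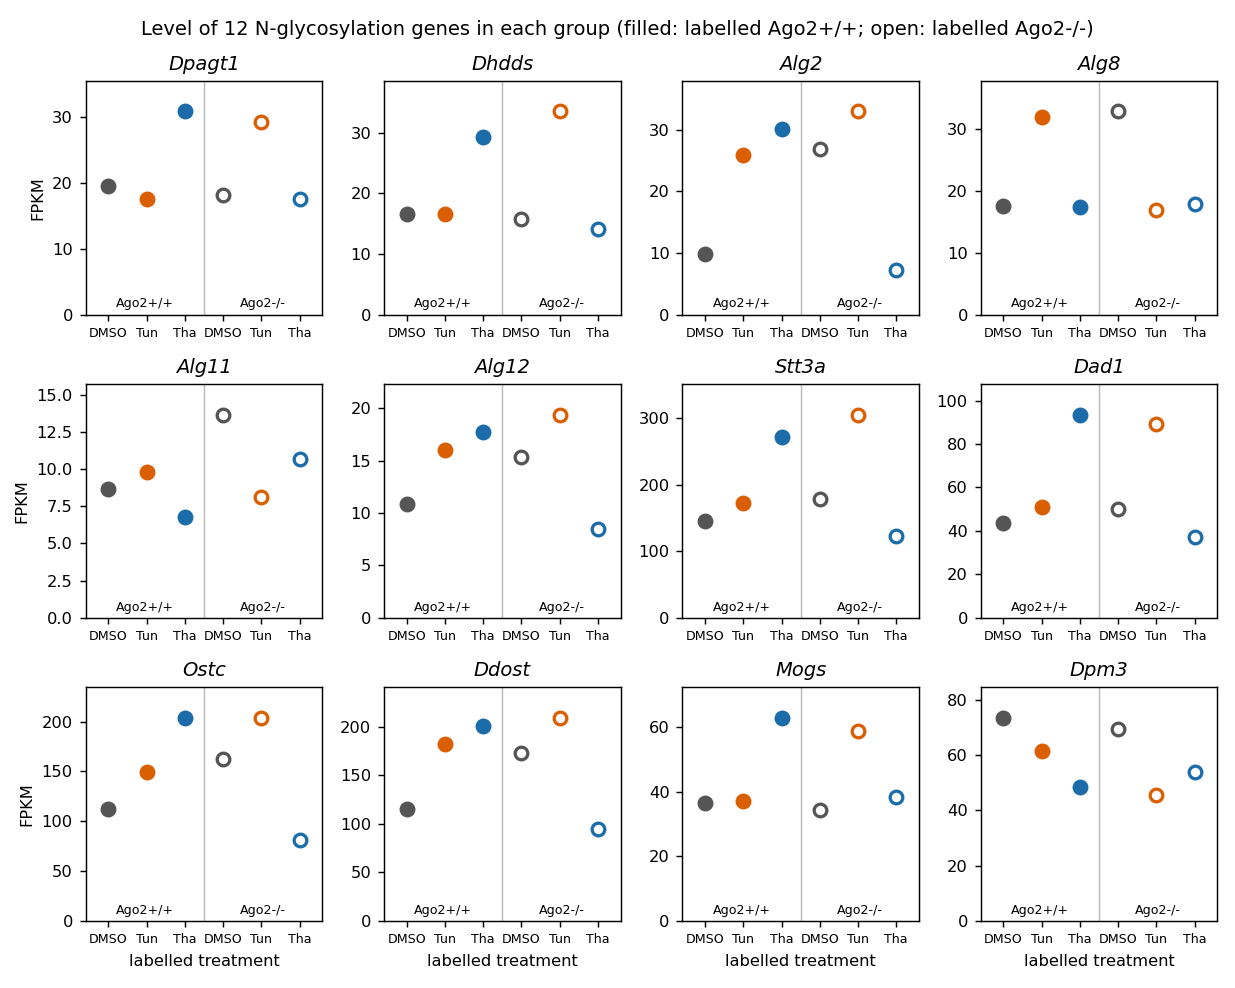
FPKM (y axis, from 0) of 12 genes of the pathway in each group, filled for groups labelled Ago2+/+ and open for Ago2-/-, coloured by labelled treatment (Tun for tunicamycin, Tha for thapsigargin). Dpagt1, Dhdds, Stt3a, Dad1 and Mogs were high in Ago2+/+ thapsigargin and Ago2-/- tunicamycin, Alg2, Alg12, Ostc and Ddost were lowest in Ago2+/+ DMSO and Ago2-/- thapsigargin, and Alg8 was high in Ago2+/+ tunicamycin and Ago2-/- DMSO.

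The comparisons that the design implies set each stressor against DMSO within a label, and one label against the other within a treatment. They ask what ER stress does to these mRNAs and whether the loss of AGO2 alters it. They share groups with each other, so their values are not independent, and in such bulk RNA a change in the share of cells of a kind cannot be told apart from a change of RNA per cell.

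For tunicamycin against DMSO in the groups labelled Ago2+/+, 3 of the 36 genes were at least 1.5-fold higher, where 17.2% of all loci were. These were Alg2 (1.38 on the log2 scale), Alg8 (0.86) and Ddost (0.66). None of the 36 was 1.5-fold lower, where 16.2% of all loci were. The median over the 36 genes was 0.03 and that over all loci 0.0062. In this comparison the enzyme that the drug blocks showed no higher mRNA (Dpagt1, -0.16).

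For thapsigargin against DMSO in the groups labelled Ago2+/+, 12 of the 36 genes were at least 1.5-fold higher, where 16.7% of all loci were. They were Alg2 (1.61), Dad1 (1.09), Alg9 (0.97), Stt3a (0.91), Ostc (0.85), Dhdds (0.81), Ddost (0.80), Mogs (0.78), Alg12 (0.70), Dpagt1 (0.65), Rpn1 (0.61) and Alg10b (0.60). By role these were 5 of 9 OST genes, 3 of 6 of assembly in the lumen and 2 of 6 on the cytosolic face. They were also 1 of 4 genes of dolichol supply, 1 of 6 of trimming and 0 of 5 donor genes. With 1 pooled value per group, counts in roles of 4 to 9 genes cannot be told apart from the share of all loci. Dpm3, the anchor of the mannose donor enzyme, was the 1 gene at least 1.5-fold lower (-0.60), where 15.2% of all loci were. The median over the 36 genes was 0.33, against 0.01 over all loci.

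For tunicamycin against DMSO in the groups labelled Ago2-/-, 7 genes were at least 1.5-fold higher, where 21.4% of all loci were. They were Dhdds (1.08), Alg9 (0.87), Dad1 (0.84), Mogs (0.78), Stt3a (0.77), Rpn1 (0.73) and Dpagt1 (0.69). Alg8 (-0.96), Alg11 (-0.75) and Dpm3 (-0.61) were at least 1.5-fold lower, where 19.8% of all loci were. The share of members past the fold was thus not above that of all loci here, while the median was 0.30 against 0.00 over all loci and 25 of the 36 genes were above 0 (69.4%, against 49.9% of all loci).

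For thapsigargin against DMSO in the groups labelled Ago2-/-, no gene of the pathway was at least 1.5-fold higher, where 16.7% of all loci were. Alg2 (-1.89), Ostc (-0.99), Alg8 (-0.88), Ddost (-0.88), Alg12 (-0.84) and Magt1 (-0.71) were at least 1.5-fold lower, where 19.1% of all loci were. The 9 OST genes were all below 0, with a median of -0.42. Over the 36 genes the median was -0.17, against -0.02 over all loci.

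**Figure D4:**
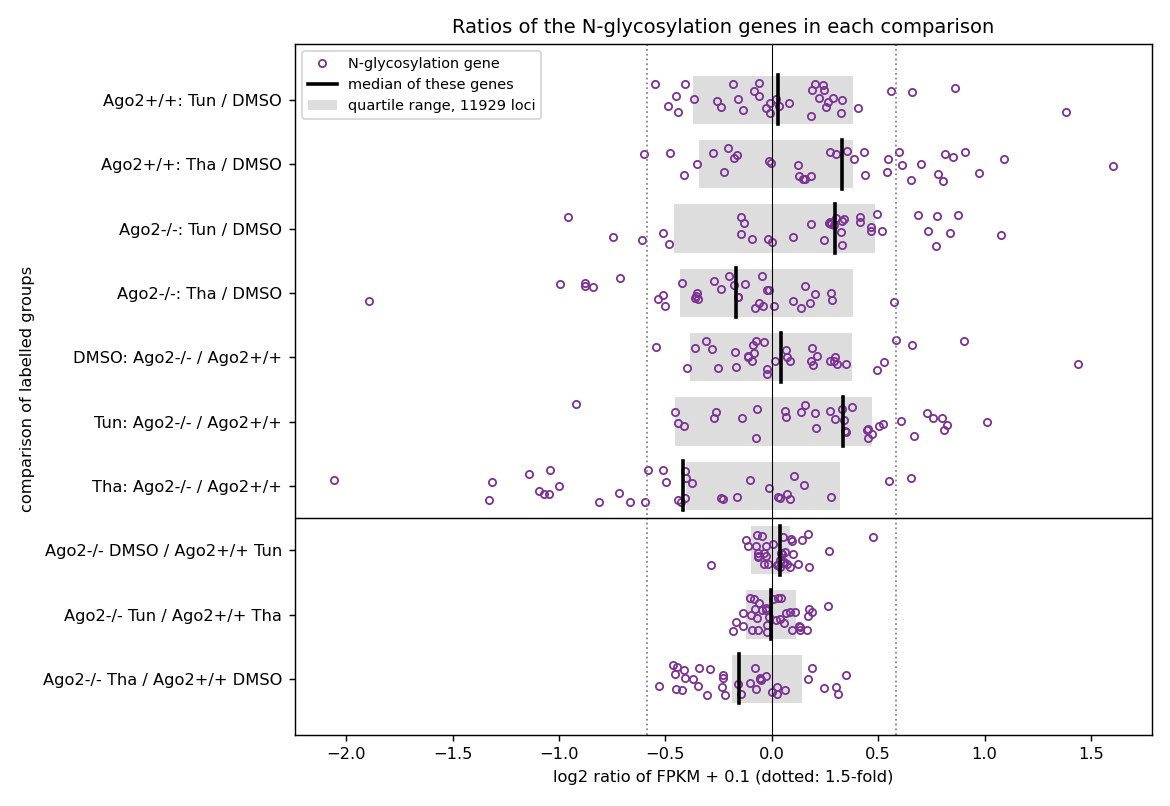
Log2 ratio of FPKM + 0.1 (x axis) for the 36 genes in 7 comparisons of labelled groups and, under the line, between the 3 close groups, with each open point a gene, the black bar the median of the 36 genes and the grey bar the quartile range of 11929 loci. The median lay at 0.33 for thapsigargin against DMSO in the groups labelled Ago2+/+ and at -0.17 in those labelled Ago2-/-, and no gene passed 1.5-fold (dotted) between close groups.

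Between labels under DMSO, Alg2 (1.44), Alg8 (0.90), Alg11 (0.66) and Ddost (0.59) were at least 1.5-fold higher in the group labelled Ago2-/-, where 17.2% of all loci were. No gene of the 36 was 1.5-fold lower, where 16.7% of all loci were. Under tunicamycin, 8 genes were higher in the group labelled Ago2-/-, where 20.7% of all loci were. They were Dhdds (1.01), Stt3a (0.82), Alg9 (0.81), Dad1 (0.80), Rpn1 (0.76), Dpagt1 (0.73), Mogs (0.67) and Uggt2 (0.61). Only Alg8 (-0.92) was lower, where 19.4% of all loci were.

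Between labels, the median over the 36 genes was 0.04 under DMSO and 0.34 under tunicamycin, against 0.008 and -0.0028 over all loci. The count of 8 higher genes under tunicamycin was near the usual share. Under thapsigargin the median was below 0. In the group labelled Ago2-/-, 13 of the 36 genes were at least 1.5-fold lower, where 17.7% of all loci were, and Alg11 (0.65) was higher, where 14.9% of all loci were. The 13 were Alg2 (-2.06), Dad1 (-1.33), Ostc (-1.32), Stt3a (-1.14), Ddost (-1.09), Magt1 (-1.07), Alg12 (-1.05), Dhdds (-1.04), Alg9 (-0.999), Dpagt1 (-0.81), Mogs (-0.72), Rpn1 (-0.67) and Alg14 (-0.60). The median over the 36 genes was -0.42, against -0.03 over all loci. For the OST alone it was -1.07, with 6 of 9 genes past the fold. Over the 7 comparisons, 18 of the 36 genes were past the fold at least once, where 64.8% of all loci were, and 18 never, among them Stt3b, Ganab, Prkcsh, Uggt1 and Man1b1. Past the fold in opposite directions under the 2 labels were 1 gene for tunicamycin (Alg8), where 18.6% of all loci were, and 4 for thapsigargin (Alg2, Alg12, Ddost and Ostc), where 12.6% of all loci were.

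Groups that lay close across the labels differed far less for these genes. Between Ago2-/- DMSO and Ago2+/+ tunicamycin none of the 36 was past 1.5-fold in either direction, where 3.4% of all loci were, and the ratios ran from -0.29 to 0.48. Between Ago2-/- tunicamycin and Ago2+/+ thapsigargin none was, where 4.39% of all loci were, and the ratios ran from -0.18 to 0.26. Between Ago2-/- thapsigargin and Ago2+/+ DMSO none was, where 9.3% of all loci were, with ratios from -0.53 to 0.35 and a median of -0.15. These pairs were known to be close from earlier results of these data. Each of the 5 remaining pairs of groups had between 6 and 13 of the 36 genes past the fold, with between 32.9% and 39.7% of all loci.

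Several genes that feed the pathway with activated sugars were high in the same groups. Of 12 genes of sugar donor supply, 5 were at least 1.5-fold higher for thapsigargin against DMSO in the groups labelled Ago2+/+ (16.7% of all loci). In that comparison 1 was lower (15.2% of all loci). For tunicamycin against DMSO in the groups labelled Ago2-/-, 6 were higher (21.4% of all loci) and 1 lower (19.8% of all loci). Gfpt1, the entry enzyme of the hexosamine pathway, stood at 33.9, 30.1 and 73.2 FPKM and at 29.6, 79.2 and 30.8 FPKM. Gmppb, which makes GDP-mannose, stood at 12.6, 13.6 and 36.2 FPKM and at 15.7, 43.4 and 8.17 FPKM, and Pgm3 of the hexosamine pathway stood at 7.65, 6.74 and 18.6 FPKM and at 8.63, 21.1 and 6.42 FPKM. These spans, 2.68-fold, 5.31-fold and 3.28-fold, were wider than that of most of the 36 genes. Others did not share this shape. Pmm2, which makes mannose 1-phosphate, kept between 29.1 and 35.2 FPKM with its highest value under Ago2+/+ DMSO, and Uap1l1 was lowest in the 2 groups where Gfpt1 was highest, with 36.04, 50.3 and 9.59 FPKM and with 48.0, 12.7 and 24.2 FPKM.

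Of 6 other genes of the dolichol cycle and the OST, only Tmem258 was past the fold for thapsigargin against DMSO in the groups labelled Ago2+/+. This gene of an OST subunit was at 0.62, where 16.7% of all loci were at least 1.5-fold higher. It stood at 93.5, 102 and 144 FPKM under Ago2+/+ and at 104, 144 and 73.5 FPKM under Ago2-/-. The list of lectins that read the trimmed glycan held 10 genes, among them Mcfd2, which is not itself a lectin. Of these 10, Edem1, Lman2 and Mcfd2 were higher for thapsigargin against DMSO in the groups labelled Ago2+/+ (16.7% of all loci). None was lower (15.2% of all loci). Edem1, which directs misfolded glycoproteins to disposal, stood at 42.5, 40.1 and 70.5 FPKM and at 34.4, 74.5 and 26.8 FPKM. Mcfd2, a cargo receptor subunit, had the shape of Alg2, with 55.0, 109.9 and 112 FPKM and with 117, 116 and 47.9 FPKM. The 12 of 13 Golgi genes that passed the filter had 3 higher (16.7% of all loci) and 3 lower (15.2% of all loci) in the same comparison. The cytosolic deglycosylation genes Ngly1 and Engase spanned 5.74 to 12.5 FPKM and 1.18 to 4.04 FPKM.

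**Figure D5:**
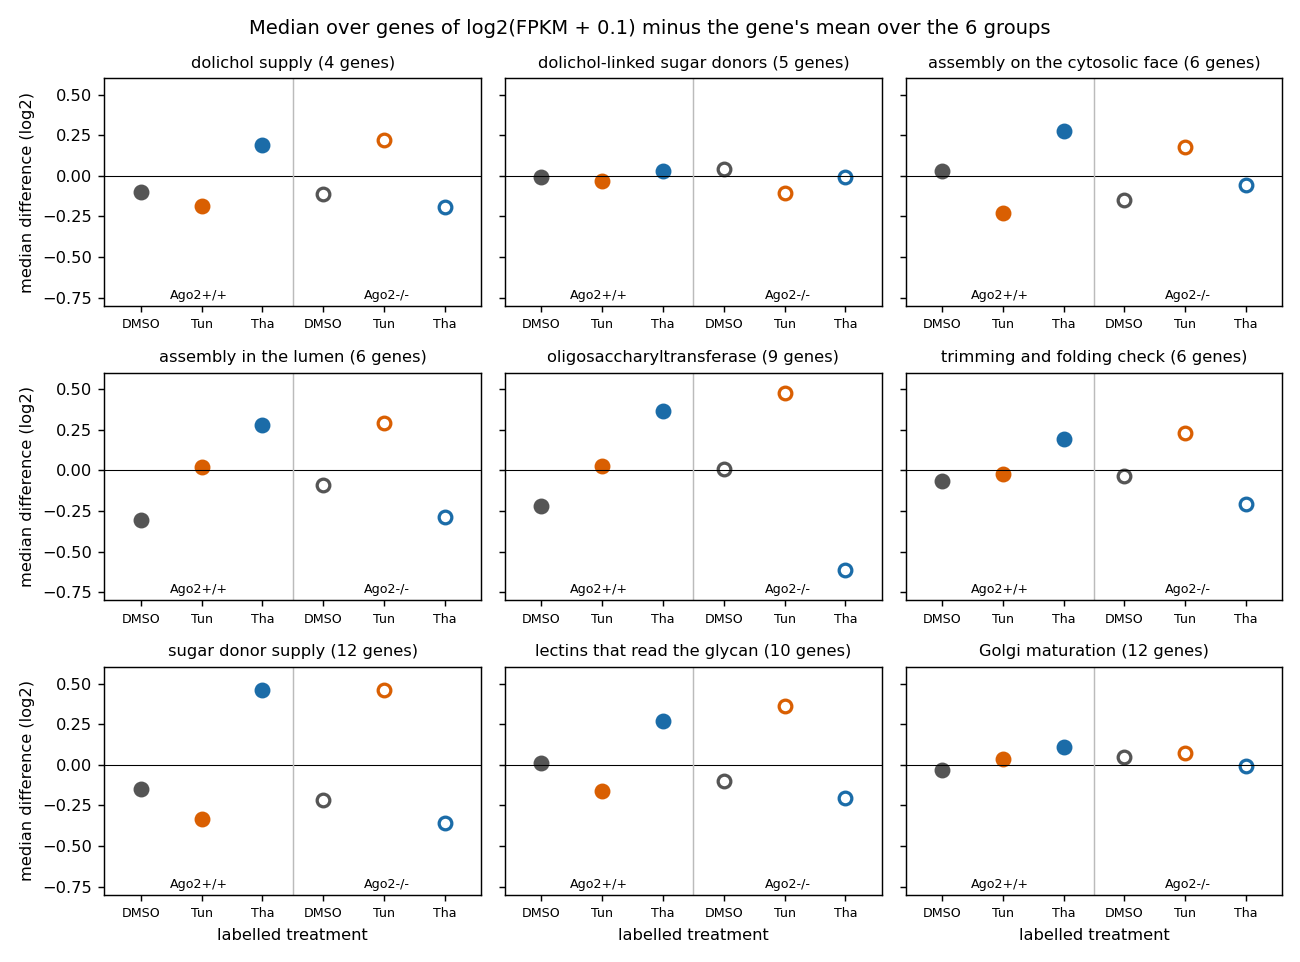
Median over the genes of a role of log2(FPKM + 0.1) minus each gene's mean over the 6 groups (y axis), in each group, for the 6 roles of the pathway and for 3 related gene lists, filled for groups labelled Ago2+/+ and open for Ago2-/-. The median of the OST genes ran from -0.62 in Ago2-/- thapsigargin to 0.47 in Ago2-/- tunicamycin. That of the dolichol-linked sugar donor genes kept within -0.11 and 0.04, while single donor genes moved in opposite directions. For thapsigargin against DMSO under Ago2+/+, Dpm3 was at -0.60 and Alg5 at 0.55 on the log2 scale.

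Genes that ER stress is known to switch on gave no simple order of the labelled treatments. Dnajb9, an ER co-chaperone induced through XBP1, stood at 9.86, 28.2 and 31.4 FPKM and at 29.0, 35.7 and 9.05 FPKM, low in the pair of groups where Alg2 was low. Ddit3, encoding the stress factor CHOP, was between 237 and 349 FPKM in all groups, DMSO included. Herpud1 stood at 293, 349 and 431 FPKM and at 334, 492 and 207 FPKM. For thapsigargin against DMSO in the groups labelled Ago2-/-, 4 of the 8 stress genes were at least 1.5-fold lower (19.1% of all loci). These were Dnajb9, Herpud1, Hspa5 and Sdf2l1. None was higher (16.7% of all loci). Ddit3 (-0.42), Pdia4 (-0.16), Xbp1 (0.08) and Hsp90b1 (0.16) were within the fold.

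Markers of cell type moved with these results as well. The smooth muscle list (Acta2, Tagln, Cnn1, Myh11) summed to 2417 FPKM in the group labelled Ago2+/+ thapsigargin and 1800 FPKM in that labelled Ago2-/- tunicamycin, the groups where most of the 36 genes were highest, and to between 2.23 and 6.42 FPKM in the other 4, while Myh11 stayed at or under 0.073 FPKM throughout. Fibroblast markers moved in both directions. In those 2 groups Col1a1 was at 521 and 651 FPKM (between 5.97 and 112 elsewhere), Col1a2 at 409.7 and 577 FPKM (between 23.7 and 101 elsewhere) and Fn1 at 567 and 599.5 FPKM (between 46.4 and 326 elsewhere). S100a4 was at 285 and 330.1 FPKM there, against 937 to 1967 FPKM elsewhere, and Vim at 1181 and 952 FPKM, against 1290.4 to 2634 FPKM. The fibroblast list of 9 genes summed to between 3554 and 4457 FPKM, with Thy1 listed at 0 in all 6 groups. Abundant genes such as Vim weigh most in this sum, so it hides wide spans of single genes. Pdgfrb ran from 0.54 to 17.9 FPKM and Pdgfra from 0.49 to 8.72 FPKM. The row of S100a4 also names Gm42674 and S100a3. The 4 epithelial genes summed to at most 1.33 FPKM, the 3 endothelial genes to at most 0.449 FPKM and the 3 blood genes to at most 1.89 FPKM, with Adgre1 listed at 0. The part of these differences in the levels of the 36 genes was not tested.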

How the data were processed

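The authors aligned reads of 18 libraries with HISAT2 2.1.0 to Ensembl annotation of GRCm38, assembled transcripts with StringTie 1.3.4d and quantified loci with Cuffdiff 2.2.1 (versions per the submitters' processing notes; FastQC 0.11.7 for quality). In the deposited table each group has 1 FPKM per locus, which the authors estimated from its 3 libraries. The table has 772485 rows, 1 for each of 51499 loci and 15 pairs of groups. Its other columns hold the authors' fold change, test statistic, p and q and were not used. No source used here gives the strandedness, so 16 genes whose locus holds exons of another annotated gene (GENCODE M21) are uncertain to that extent.

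Genes were described at log2(FPKM + 0.1) with Python 3.11.15 and pandas 2.3.3, without p-values, since a group has 1 value. The ratio script was tested on simulated data. Values in all 6 groups are given for Dpagt1, for each gene past 1.5-fold in any of 7 contrasts and for at least 1 gene of each role. The genes and lists were chosen with earlier results of these data known. Alternatives were other pseudocounts, filters, folds, centring and DMSO groups.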

Additional observations from a re-analysis of the deposited data

Results flagged for a closer look

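For 5 genes the ratio of a stressor to DMSO lay past 1.5-fold in opposite directions under the 2 labels, with 1 pooled value per group, and the difference was not tested. Of all loci, 18.6% did so for tunicamycin and 12.6% for thapsigargin, so the share among the 36 genes was not above the usual one. For tunicamycin this held for the glucosyltransferase gene Alg8, at 0.86 on the log2 scale in the groups labelled Ago2+/+ and -0.96 in those labelled Ago2-/-. For thapsigargin it held for the mannosyltransferase genes Alg2 (1.61 and -1.89) and Alg12 (0.70 and -0.84) and for the OST genes Ddost (0.80 and -0.88) and Ostc (0.85 and -0.99). The median over the 36 genes for thapsigargin was 0.33 in the groups labelled Ago2+/+ and -0.17 in those labelled Ago2-/-, also untested. In each case the values rest on labels that the level of Ago2 goes against.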

How the results depend on the processing

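No paired analysis was possible because the table holds 1 pooled value per group, and for the same reason no library could be left out. Pseudocounts of 0.01 and 1 and centring on the median of all loci changed no count by more than 1.5 times. Nor did keeping only loci that hold no other gene, which left out Dpm1 alone. None of these changed a median by 0.1 or more on the log2 scale. Dropping the filter on low values and summing over loci could not change the values of the 36 genes. All 36 pass the filter, and each has 1 locus. Medians near 0 changed sign: that of the close pair Ago2-/- tunicamycin and Ago2+/+ thapsigargin (-0.0026) was 0.00064 when centred and 0.051 without genes whose locus holds other exons, and that of tunicamycin under Ago2+/+ (0.028) was -0.038 with the other DMSO group. With a pseudocount of 1 the span of Alg2 was 4.16-fold. With the DMSO group of the other label, 0 genes were past 1.5-fold for tunicamycin in the groups labelled Ago2+/+ and 0 for thapsigargin in those labelled Ago2-/-, by construction, since those comparisons are then the close pairs. At 2-fold or more, 1, 2, 1 and 1 genes were counted for tunicamycin and thapsigargin against DMSO under Ago2+/+ and then under Ago2-/-, and 1, 1 and 8 between labels under DMSO, tunicamycin and thapsigargin, with 16.8% to 22% of all loci past that fold. At 1.25-fold, chosen after seeing the data, these counts were 13, 22, 22 and 15, then 10, 23 and 24, with 54.3% to 64.4% of all loci, and the close pairs had 1 (Ago2-/- DMSO and Ago2+/+ tunicamycin, 9.94% of all loci) and 12 (Ago2-/- thapsigargin and Ago2+/+ DMSO, 25.1%). Without the 16 genes whose locus holds other exons, also chosen after seeing the data, 20 genes were left. Thapsigargin against DMSO under Ago2+/+ then had 8 genes past the fold (31.9% of all loci) and a median of 0.44, and under Ago2-/- a median of -0.30. The comparisons between labels had 5 under tunicamycin (40.2% of all loci) and 9 under thapsigargin (32.6% of all loci).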
